A study of Mus musculus with 29 samples.

Results

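Adipokines and the genes of fatty acid uptake were followed through adipocyte differentiation of 3T3-L1 cells, a mouse fibroblast line able to become white adipocytes in culture. The 9 genes described, of 11959 in the deposited counts, were picked by symbol and not by their response, though earlier results of these data were known. They are Adipoq, Cfd, Retn, Angptl4, Lgals12, Lpl, Cd36, Fabp4 and Fabp5. All 9 were found through their Ensembl identifiers. The labels name no genetic change in the cells, which were given 10 µM KDM5-C70 (C70), an inhibitor of KDM5 histone demethylases, or the DMSO vehicle from confluence on day -2 until day 0. RNA was taken on day 0 from preadipocytes, on days 1 and 2 in differentiation medium, and on day 7 in adipocyte medium. The differentiation medium contained dexamethasone, insulin, isobutylmethylxanthine and a PPARγ agonist, and the adipocyte medium insulin and dexamethasone, each given to vehicle and C70 cells alike. There were 8 groups and 29 samples. Days 0, 1 and 2 had 3 vehicle and 4 C70 samples each, and day 7 had 4 of each. All came from 1 cell line, and no source says that replicates were separate cultures, so P values measure the spread between these samples, which may be technical.

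Adipocytes secrete hormones and enzymes called adipokines, and they take up fatty acids from circulating lipoproteins. Lipoprotein lipase (Lpl) frees fatty acids from triglyceride outside the cell, Angptl4 inactivates that enzyme, CD36 carries the fatty acids across the plasma membrane, and the binding proteins FABP4 and FABP5 carry them inside the cell. Most of these genes are switched on during adipogenesis by PPARγ and C/EBP transcription factors, and are used as markers of a differentiated fat cell.

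Total counts per sample ranged from 16320275 to 24037170, and scaling factors by the TMM method (trimmed mean of M values) from 0.898 to 1.08. The unit of level is CPM, a count divided by its library's TMM-scaled total so that samples compare. The stage of the cells was checked against marker genes. All 6 adipocyte markers were in the table, with a summed level in vehicle of 145 to 157 CPM on day 0 and 9976 to 11404 CPM on day 7. Of 8 preadipocyte and fibroblast markers 7 were present, and their sum in vehicle was 20406 to 21081 CPM on day 0 and 2219 to 2906 CPM on day 7. None of 5 endothelial markers was in the table, and of 7 macrophage markers only Cd68 and Cd14 were. Vehicle replicate 1 of day 7 stood apart from its group over all genes, with a chi-square per degree of freedom of 39.8 to 46.7 against the other 3 vehicle samples, which had 2.65 to 10.7 among themselves, so the differences between treatments on day 7 are given for the 9 genes with and without it. Here a DEG had an adjusted P under 0.05 in edgeR's quasi-likelihood test, adjusted over all 11959 genes, and a log2 fold change beyond 0.32 in either direction, called the fold change threshold below. Log2 fold changes are given with an approximate SE, derived from the F statistic of that test.

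The genes lie on 7 chromosomes of the GRCm38 build. Among the secreted products, Adipoq is at chr16:23146536-23158028, Cfd at chr10:79890853-79892655, and Retn at chr8:3655770-3660110, all on the plus strand. Angptl4 is at chr17:33773750-33781830 and Lgals12 at chr19:7596660-7607193, both on the minus strand. Lpl is at chr8:68880491-68907448 on the plus strand and Cd36 at chr5:17781690-17888801 on the minus strand. Fabp5, at chr3:10012548-10016607 on the plus strand, and Fabp4, at chr3:10204088-10208576 on the minus strand, both lie on chromosome 3. No other annotated gene overlapped any of the 9. Promoters of 4 of them were held in the RefSeq table for GRCm38.p6. The 100 bases before the RefSeq start sites are shown because these genes rose together. For Cd36, which has several annotated starts, this is an internal start within the span given above, and no other window was read. Capitals mark the letters CCAAT or, read on the other strand, ATTGG.

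Adipoq, chr16:23146436-23146535, plus strand: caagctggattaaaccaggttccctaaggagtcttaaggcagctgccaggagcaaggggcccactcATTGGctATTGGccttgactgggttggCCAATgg
Cfd, chr10:79890753-79890852, plus strand: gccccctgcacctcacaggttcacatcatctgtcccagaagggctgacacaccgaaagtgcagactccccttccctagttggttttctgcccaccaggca
Retn, chr8:3655670-3655769, plus strand: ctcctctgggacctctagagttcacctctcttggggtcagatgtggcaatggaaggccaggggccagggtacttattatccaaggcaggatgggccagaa
Cd36, chr5:17835897-17835996, minus strand: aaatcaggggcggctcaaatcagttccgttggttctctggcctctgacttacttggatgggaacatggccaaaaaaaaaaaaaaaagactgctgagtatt

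Adipoq had 3 matches to CCAAT, counted from the start site at -34 to -30 and -27 to -23 on the minus strand and at -7 to -3 on the plus strand. The other 3 windows had none. Of 32851 promoter windows of the same length, 18.9% held CCAAT on either strand. The letters AGGTCA (in 5.88% of windows), TTGCNNAA (3.43%) and TATAAA (5.56%) were searched on both strands as well and occurred in none of the 4.

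In vehicle cells the 9 genes rose from day 0 to day 1, when 9 of 9 were higher DEGs beside 26.2% of all genes, and 54.1% of all genes were DEGs in either direction. From day 1 to day 2, 8 were higher and Angptl4 was lower, beside 44.3% of all genes called and 22.3% higher. From day 2 to day 7 the 9 genes parted. Adipoq, Cfd, Retn, Lgals12 and Cd36 rose further, Fabp4 and Fabp5 fell, and Lpl and Angptl4 did not pass the fold change threshold, where 53.3% of all genes were DEGs, 26.6% higher and 26.7% lower. Without vehicle replicate 1 of day 7 the count was again 7. Under quantile normalization with limma-trend the rise of Lgals12 over these days did not pass (0.63, adjusted P = 0.114), and Lpl (-0.35, adjusted P = 2.95e-06) and Angptl4 (-0.38, adjusted P = 2.14e-06) were lower DEGs. Together the 9 genes took 0.143% ± 0.00608 (SD, n = 3) of all counts on day 0, 0.620% ± 0.0119 (SD, n = 3) on day 1, 2.13% ± 0.0530 (SD, n = 3) on day 2 and 2.42% ± 0.145 (SD, n = 4) on day 7. In C70 cells 9 rose from day 0 to day 1 (52.6% of all genes called, 25.8% higher), 8 rose and Angptl4 fell from day 1 to day 2 (36.9% called, 18.8% higher), and 7 rose while Angptl4 and Fabp5 fell from day 2 to day 7 (54.8% called, 27.6% higher and 27.2% lower). The rise of Lgals12 in C70 cells from day 0 to day 1, 2.04 ± 0.49 on the log2 scale, was 0.07 under quantile normalization and did not pass (adjusted P = 0.860). Their share of all counts in C70 cells was 0.153%, 0.398%, 1.28% and 2.55% at the 4 times.

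**Figure D1:**
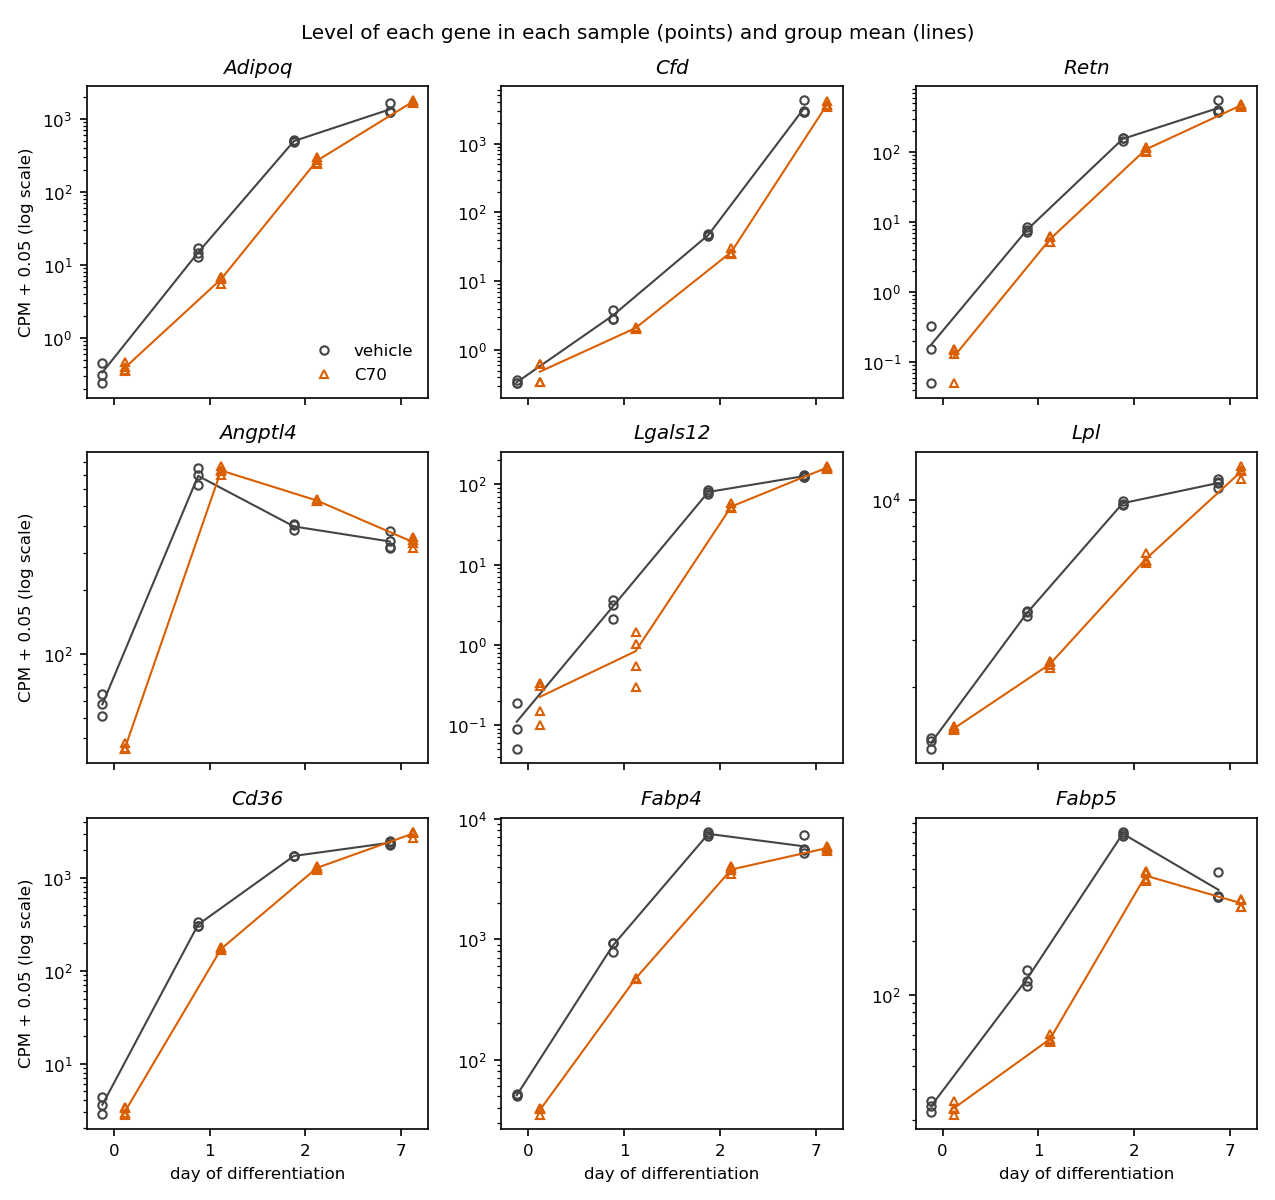
Level of each of the 9 genes in each of the 29 samples against the day of differentiation. The vertical axis is CPM + 0.05 on a log scale, circles are vehicle samples, triangles are C70 samples and lines join group means. In 8 panels the C70 points lie below the vehicle points on days 1 and 2, and in the Angptl4 panel they overlap on day 1 and lie above on day 2.

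The difference between treatments changed with time. On day 0, directly at the end of treatment, Angptl4 and Fabp4 were lower in C70 cells. On day 1, 8 of the 9 genes were lower, all but Angptl4, and on day 2 all but Angptl4 were lower and Angptl4 was higher. On day 7 none was a lower DEG, and Adipoq, Lgals12 and Cd36 were higher. Beside these counts of 2, 8, 9 and 3 DEGs, the share of all genes that were DEGs was 8.97% on day 0, 21.4% on day 1, 30.5% on day 2 and 19.1% on day 7. By direction, 3.09% of all genes were lower and 5.89% higher on day 0, 7.8% and 13.6% on day 1, 13.6% and 16.9% on day 2, and 4.85% and 14.3% on day 7. The day 7 count was 4 without vehicle replicate 1, with Cfd added, 1 without vehicle replicate 4, 1 under quantile normalization and 0 at a fold change over 1.5. The median log2 fold change of the 9 genes was -0.04 on day 0, -0.87 on day 1, -0.69 on day 2 and 0.15 on day 7, and that of all genes lay between -0.01 and 0.00 on each day. The samples of the treatments did not overlap for 3, 8, 9 and 5 of the 9 genes on days 0, 1, 2 and 7, beside 34.0%, 48.2%, 57.2% and 29.3% of all genes. For the 8 lower genes, the C70 mean on day 2 had covered from 37.6% (Lpl) to 69.2% (Retn) of the distance in CPM between the vehicle means of days 1 and 2. In bulk RNA, fewer differentiating cells and less RNA per cell cannot be told apart.

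**Figure D2:**
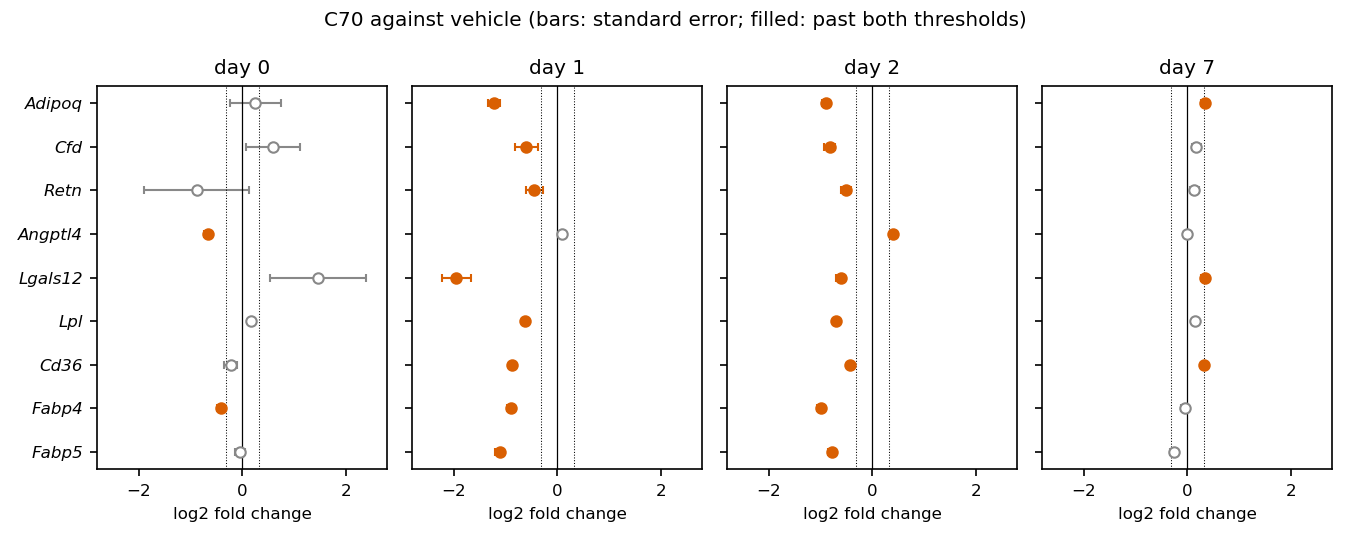
Log2 fold change of C70 against vehicle for each gene on days 0, 1, 2 and 7, with the SE as a bar. Filled points passed both thresholds, and dotted lines mark a log2 fold change of 0.32 in each direction. The points lie left of 0 for 8 genes on days 1 and 2, and between -0.25 and 0.35 for the 9 genes on day 7.

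Adiponectin, encoded by Adipoq, is the hormone that fat cells secrete in the largest amounts and that increases insulin sensitivity. On day 0 its level was 0.403, 0.260 and 0.186 CPM in the 3 vehicle samples and 0.345, 0.311, 0.298 and 0.410 CPM in the 4 C70 samples, from 19 and 29 counts in all. The groups overlapped, and the log2 fold change of 0.25 ± 0.49 (adjusted P = 0.796 in edgeR) had a 95% interval from -0.72 to 1.21, so a difference in either direction was not detectable at this depth.

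On day 1 Adipoq reached 14.2, 16.9 and 12.8 CPM in vehicle and 6.63, 6.79, 6.33 and 5.35 CPM in C70 samples. The highest C70 sample was below the lowest vehicle sample, and the log2 fold change was -1.22 ± 0.12 (edgeR adjusted P = 1.74e-09). On day 2 vehicle samples had 477, 510.2 and 491 CPM and C70 samples 247, 298, 273 and 243 CPM, again without overlap. The mean in C70 cells was 53.7% of that in vehicle on day 2, with a log2 fold change of -0.90 ± 0.08 (edgeR adjusted P = 7.85e-11). On day 7 the order was turned around, with 1742, 1793, 1636 and 1643 CPM in C70 against 1619.8, 1286, 1225 and 1228 CPM in vehicle samples. Every C70 sample was above every vehicle sample, though the lowest by only a small margin over vehicle replicate 1, and the log2 fold change was 0.35 ± 0.07 (edgeR adjusted P = 3.19e-04). Without vehicle replicate 1 it was 0.46, and without vehicle replicate 3 or 4 it was 0.31 and no longer passed the fold change threshold. The change in the C70 effect from day 2 to day 7 was 1.24 ± 0.11 on the log2 scale (edgeR adjusted P = 3.41e-10).

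Cfd encodes adipsin, the serine protease also known as complement factor D, which adipocytes release and which activates the alternative complement pathway. Among the 9 genes, it came on later than the other secreted products. Vehicle samples had 0.282, 0.312 and 0.279 CPM on day 0, 2.78, 3.76 and 2.78 CPM on day 1 and 46.1, 49.1 and 45.5 CPM on day 2. By day 7 they had 4274, 2968, 2908 and 2918 CPM, a log2 fold change of 6.12 ± 0.12 over day 2 (edgeR adjusted P = 7.32e-27), which is a 69.6-fold rise while no other of the 9 genes rose more than 2.77-fold over these days.

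In C70 samples Cfd was at 0.295, 0.570, 0.298 and 0.575 CPM on day 0, which overlapped with vehicle (log2 fold change 0.59 ± 0.53, edgeR adjusted P = 0.499). On day 1 the C70 samples had 2.00, 2.02, 1.99 and 2.14 CPM, all below the vehicle samples, and the difference of -0.60 ± 0.22 (edgeR adjusted P = 0.0297) rested on 34 to 80 counts per sample. It was lost without vehicle replicate 2 (log2 fold change -0.45, adjusted P = 0.179) and without C70 replicate 1 (-0.59, 0.0579) or 2 (-0.60, 0.0540), and with limma-voom (-0.58, 0.163). On day 2 C70 samples had 24.8, 30.4, 26 and 25.1 CPM, well below vehicle, with a log2 fold change of -0.82 ± 0.11 (edgeR adjusted P = 1.14e-07). On day 7 they had 3651, 4101, 3638 and 3409.7 CPM, which lay above vehicle replicates 2 to 4 and below replicate 1, and the log2 fold change of 0.18 ± 0.08 (edgeR adjusted P = 0.0892) did not pass. Without that vehicle sample Cfd was a higher DEG, at 0.34 (edgeR adjusted P = 1.46e-06). The C70 effect differed between days 2 and 7 by 1.00 ± 0.14 on the log2 scale (edgeR adjusted P = 1.04e-06).

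Retn encodes resistin, a small cysteine-rich hormone made by mouse adipocytes. Its transcripts were at the limit of detection on day 0, with 9 counts over the 3 vehicle and 6 over the 4 C70 samples, and 1 sample of each group at 0. A difference between treatments was not detectable there (log2 fold change -0.89 ± 1.01, 95% interval -2.86 to 1.09). On day 1 vehicle samples had 7.67, 8.36 and 7.11 CPM and C70 samples 5.14, 6.25, 5.16 and 6.08 CPM. The groups did not overlap, and the log2 fold change was -0.44 ± 0.16 (edgeR adjusted P = 0.0292), a call that was lost without vehicle replicate 1 or 2, without C70 replicate 1 or 3 (adjusted P from 0.0577 to 0.117) and with limma-voom (0.217).

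On day 2 Retn was at 144, 161 and 159 CPM in vehicle and 99.5, 117, 115 and 105 CPM in C70 samples. All C70 samples were below vehicle, and the log2 fold change was -0.50 ± 0.10 (edgeR adjusted P = 5.40e-05). By day 7 vehicle samples had 553, 374, 393 and 394 CPM and C70 samples 461, 495, 479 and 448 CPM. As for Cfd, the C70 values lay between vehicle replicate 1 and the other vehicle samples, and the log2 fold change of 0.14 ± 0.09 (edgeR adjusted P = 0.215) did not pass. Without vehicle replicate 1 it was 0.29 (adjusted P = 4.33e-05), still under the fold change threshold.

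Lgals12 encodes galectin-12, a galectin of adipocytes that is found on lipid droplets. It had 4 counts over the 3 vehicle samples on day 0 and 15 over the 4 C70 samples, and the 95% interval of the log2 fold change ran from -0.36 to 3.27. On day 1 vehicle samples had 3.56, 3.10 and 2.07 CPM and C70 samples 0.976, 0.492, 1.41 and 0.243 CPM. No C70 sample reached the lowest vehicle sample, and the log2 fold change of -1.95 ± 0.27 (edgeR adjusted P = 9.91e-07) was the lowest of the 9 genes at any day, from 5 to 78 counts per sample. The vehicle mean on day 1 was already 2.91 CPM and that in C70 cells 0.780 CPM.

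On day 2 Lgals12 stood at 76.0, 84.8 and 79.8 CPM in vehicle and 50.5, 58.3, 51.6 and 50.6 CPM in C70 samples. C70 samples remained lower, by a log2 fold change of -0.61 ± 0.09 (edgeR adjusted P = 1.04e-06), and the C70 effect was smaller on day 2 than on day 1 by 1.34 ± 0.29 (edgeR adjusted P = 1.18e-03). On day 7 the C70 samples had 158, 169, 153 and 166 CPM and the vehicle samples 131, 125, 122 and 128 CPM. All C70 samples were above all vehicle samples, vehicle replicate 1 included, and the log2 fold change was 0.35 ± 0.08 (edgeR adjusted P = 5.26e-04). After quantile normalization with limma-trend the estimates were nearly unchanged at -0.60 for day 2 and 0.35 for day 7, but neither passed (adjusted P = 0.161 and 0.420). The day 7 value was 0.38 without vehicle replicate 1 (edgeR adjusted P = 2.77e-05).

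Angptl4, the secreted inhibitor of lipoprotein lipase that is also induced by fasting, peaked on day 1. On day 0 it was at 64.6, 57.8 and 50.8 CPM in vehicle and 38.0, 35.7, 35.5 and 36.1 CPM in C70 samples. All C70 samples were lower, with a log2 fold change of -0.67 ± 0.07 (edgeR adjusted P = 2.23e-08). On day 1 vehicle samples had 626, 694 and 753 CPM and C70 samples 731, 697, 733 and 769.9 CPM, the highest level of its course in both treatments. The ranges overlapped there, and the log2 fold change of 0.08 ± 0.06 (edgeR adjusted P = 0.308) had a 95% interval from -0.04 to 0.21. From day 0 to day 1 the C70 effect had moved up by 0.75 ± 0.10 (edgeR adjusted P = 8.37e-07).

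On day 2 Angptl4 had declined to 408, 384 and 405 CPM in vehicle and to 536, 524, 529 and 526 CPM in C70 samples. Every C70 sample was above every vehicle sample, with a log2 fold change of 0.41 ± 0.06 (edgeR adjusted P = 3.88e-06). The fall from day 1 was -0.79 ± 0.07 in vehicle and -0.47 ± 0.06 in C70 cells. On day 7 the samples had 378, 319, 317 and 342 CPM in vehicle and 334, 356, 343 and 317 CPM in C70, overlapping throughout, and the log2 fold change of -0.01 ± 0.06 had a 95% interval from -0.12 to 0.11. It was 0.05 without vehicle replicate 1 (edgeR adjusted P = 0.456).

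Lpl, whose enzyme is the first step of the uptake route, had the highest level per kb of the 9 genes in preadipocytes. On day 0 it had 1249.7, 1169.6 and 1291 CPM in vehicle and 1391, 1377, 1400.0 and 1429 CPM in C70 samples. The C70 samples were all higher, but by a log2 fold change of 0.18 ± 0.04 (edgeR adjusted P = 4.62e-03), which is under the fold change threshold. On day 1 the order was reversed, with 3669, 3837 and 3799.6 CPM in vehicle and 2402, 2357, 2476 and 2488 CPM in C70 samples, and a log2 fold change of -0.63 ± 0.04 (edgeR adjusted P = 9.66e-13). The C70 effect changed by -0.81 ± 0.06 from day 0 to day 1 (edgeR adjusted P = 9.43e-11).

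On day 2 Lpl was at 9542, 9647 and 9889.7 CPM in vehicle and 5956, 6322, 5884 and 5813 CPM in C70 samples. The C70 mean was 61.8% of the vehicle mean, with the groups far apart relative to their spread (log2 fold change -0.69 ± 0.04, edgeR adjusted P = 5.21e-14). On day 7 vehicle samples had 11540.1, 11960.2, 11589 and 11073 CPM and C70 samples 13353, 12948, 12776 and 11974 CPM. The C70 samples were again all higher, by 0.15 ± 0.04 on the log2 scale (edgeR adjusted P = 5.29e-03), less than the fold change threshold, and under quantile normalization the estimate was -0.10. It was 0.15 as well without vehicle replicate 1 (edgeR adjusted P = 4.79e-03). In vehicle the level changed by only 0.25 ± 0.04 from day 2 to day 7, and in C70 cells it rose by 1.09 ± 0.04.

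Cd36, the fatty acid transporter of the plasma membrane, had 4.31, 3.53 and 2.79 CPM in vehicle and 2.86, 2.75, 3.33 and 3.24 CPM in C70 samples on day 0. These overlapped (log2 fold change -0.23 ± 0.13, 95% interval -0.48 to 0.02). It then rose 87.6-fold in vehicle and 56.1-fold in C70 cells within 1 day. On day 1 vehicle samples had 306, 336 and 299 CPM and C70 samples 167, 175, 178 and 166 CPM, with no overlap and a log2 fold change of -0.87 ± 0.06 (edgeR adjusted P = 9.23e-13).

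On day 2 Cd36 was at 1727, 1726 and 1706 CPM in vehicle and 1276, 1347, 1280.5 and 1211 CPM in C70 samples. C70 samples were still lower, by -0.43 ± 0.06 (edgeR adjusted P = 4.63e-07), an effect smaller than on day 1 by 0.44 ± 0.09 (edgeR adjusted P = 3.11e-04). On day 7 C70 samples had 3082, 3048, 3134 and 2700.4 CPM and vehicle samples 2338, 2509.6, 2442 and 2243 CPM. All C70 samples were higher, with a log2 fold change of 0.33 ± 0.06 (edgeR adjusted P = 1.75e-05) that lay close to the fold change threshold. It fell below it without vehicle replicate 4 (0.30) or without C70 replicate 1 (0.31) or 3 (0.30), with upper quartile factors (0.32), and in a fit of the groups compared alone (0.32), and it was 0.15 with an adjusted P of 0.15 under quantile normalization. It still passed without vehicle replicate 1, at 0.32 (edgeR adjusted P = 4.99e-06).

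Fabp4, also called aP2, encodes the main fatty acid binding protein of adipocytes. On day 0 it had 50.8, 49.6 and 51.3 CPM in vehicle and 34.7, 38.6, 39.6 and 39.0 CPM in C70 samples, so it was lower in all C70 samples before induction (log2 fold change -0.41 ± 0.08, edgeR adjusted P = 6.38e-04). On day 1 vehicle samples had 923, 929.6 and 784 CPM and C70 samples 468, 471, 469 and 477 CPM, a log2 fold change of -0.90 ± 0.08 (edgeR adjusted P = 6.54e-11). On day 2 the values were 7503, 7169.6 and 7798 CPM in vehicle and 3492, 4033, 3895 and 3735 CPM in C70. The C70 mean was 50.6% of the vehicle mean, the lowest share of the 9 genes at this day, with a log2 fold change of -0.98 ± 0.08 (edgeR adjusted P = 3.28e-12).

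On day 7 Fabp4 was at 7279, 5629, 5484 and 5200.5 CPM in vehicle and 5874, 5900.4, 5643 and 5427 CPM in C70 samples. The ranges overlapped, and the log2 fold change of -0.05 ± 0.07 had a 95% interval from -0.18 to 0.09. Without vehicle replicate 1 the estimate was 0.08 (adjusted P = 0.25). From day 2 to day 7 the level fell by 0.34 on the log2 scale in vehicle (SE 0.08, edgeR adjusted P = 1.72e-04) and rose by 0.59 ± 0.07 in C70 cells (edgeR adjusted P = 9.47e-09), and these changes differed by 0.94 ± 0.10 (edgeR adjusted P = 2.99e-08). The fall in vehicle did not pass the fold change threshold without day 2 replicate 3 or day 7 replicate 3 or 4.

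Fabp5 encodes the epidermal type binding protein, which is expressed in many cells besides adipocytes. On day 0 it had 25.7, 24.1 and 22.2 CPM in vehicle and 25.7, 21.4, 23 and 23.4 CPM in C70 samples, which overlapped (log2 fold change -0.04 ± 0.10, 95% interval -0.24 to 0.16). On day 1 it rose to 119, 137 and 112 CPM in vehicle but to 55.0, 54.2, 60.6 and 56.5 CPM in C70 samples. The C70 mean was 46.3% of the vehicle mean, and the log2 fold change was -1.11 ± 0.09 (edgeR adjusted P = 1.06e-11). On day 2 vehicle samples had 788, 766 and 807 CPM and C70 samples 432, 488, 475 and 443 CPM, without overlap (log2 fold change -0.78 ± 0.08, edgeR adjusted P = 2.00e-09).

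On day 7 Fabp5 was lower than on day 2 in both treatments, at 479, 348, 349.6 and 356 CPM in vehicle and 340.2, 337, 307 and 306 CPM in C70 samples. It was the only one of the 9 genes with every C70 sample below every vehicle sample at this day, with a log2 fold change of -0.25 ± 0.08 (edgeR adjusted P = 9.40e-03) that was under the fold change threshold. Without vehicle replicate 1 it was -0.12 (adjusted P = 0.0789). Reads of Fabp5 could be shared with near-identical genes, so its level is uncertain. Of 5 other genes 93.6% to 98.3% identical to it over 336 to 409 bases, only Gm6166 was in the table, with counts equal to 16.2% to 22.5% of those of Fabp5 by group.

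The transcripts of the binding proteins did not keep a fixed proportion, though reads shared with near copies leave the Fabp5 counts uncertain. The ratio of Fabp4 to Fabp5 counts was 2.12 ± 0.177 in vehicle and 1.64 ± 0.199 in C70 samples on day 0 (SD, n = 3 and 4), and 7.20 ± 0.504 and 8.34 ± 0.416 on day 1. It was 9.52 ± 0.153 and 8.24 ± 0.143 on day 2, and 15.4 ± 0.662 and 17.7 ± 0.483 on day 7 (SD, n = 4 each). In vehicle the mean ratio was higher at each later time, in C70 samples it was nearly the same on days 1 and 2, and on day 7 the ratio in C70 samples, 17.3 to 18.4, lay above that in vehicle samples, 14.6 to 16.2. No test was made of these ratios.

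Divided by the length of the longest coding transcript, the levels could be ordered between genes. In vehicle on day 0 the order was Lpl with 301 CPM per kb, Fabp4 with 56.5, Fabp5 with 24.3, Angptl4 with 17.5 and Cd36 with 1.04, and Adipoq, Cfd, Retn and Lgals12 had at most 0.315 CPM per kb. On day 7 Fabp4 was first with 6583 CPM per kb, followed by Cfd with 3544, Lpl with 2804, Adipoq with 1037, Cd36 with 701, Fabp5 with 388, Retn with 376, Angptl4 with 103 and Lgals12 with 45.9. Fabp5 and Retn were not apart by more than their spread at that day. Lpl shares stretches of 204 to 419 bases at 90% to 91.7% identity with 8 other genes, of which Slc7a11 was in the table.

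**Figure D3:**
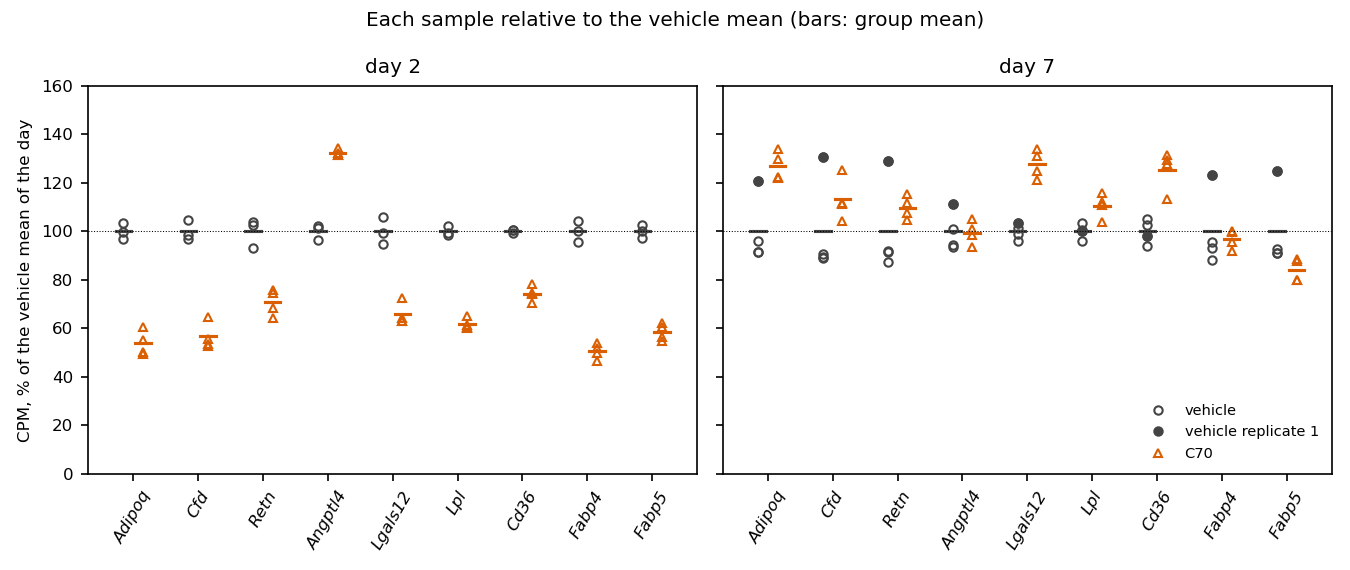
Level of each gene in each sample on days 2 and 7 as a percentage of the vehicle mean of that day, with bars at the group means. Circles are vehicle samples, triangles are C70 samples, and the filled circle is vehicle replicate 1 of day 7, which is the highest vehicle sample for Adipoq, Cfd, Retn, Angptl4, Lgals12, Fabp4 and Fabp5. C70 means lie between 50.6% and 74.4% on day 2 for 8 genes and at 132% for Angptl4, and between 84.2% and 128% on day 7.

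The shift between days was tested directly. From day 0 to day 1 the C70 effect changed past both thresholds for 7 of the 9 genes, 6 downward and Angptl4 upward, beside 13.9% of all genes in either direction and 5.23% downward. The downward change of Adipoq at this step, -1.47 ± 0.51 (edgeR adjusted P = 0.0408), rested on few counts on day 0. It was lost when any 1 of the day 0 vehicle replicates 2 and 3, the day 0 C70 replicates 1 to 4, day 1 vehicle replicate 2 or day 1 C70 replicate 4 was left out (adjusted P from 0.0514 to 0.128), and with upper quartile factors (0.0526). That of Lgals12, -3.41 ± 0.96 (edgeR adjusted P = 0.0108), was lost without day 0 C70 replicate 4 (0.0639). The change for Cfd, -1.20 ± 0.57, did not pass (edgeR adjusted P = 0.151), but did with DESeq2 (adjusted P = 0.0438), under quantile normalization (7.05e-05), in a fit of the groups compared alone (0.0346) and without day 7 vehicle replicate 1 (0.0382). With single libraries left out, 5 to 8 of the 9 genes passed at this step. From day 1 to day 2 it changed for Lgals12, Cd36 and Fabp5, all upward, beside 13.8% of all genes in either direction and 7.36% upward. The change for Fabp5 was 0.34 ± 0.12 (edgeR adjusted P = 0.0441) and was lost when any 1 of day 0 C70 replicates 3 and 4, day 1 vehicle replicates 1 and 2, day 1 C70 replicates 1, 2 and 4, day 2 vehicle replicates 1 to 3 or day 2 C70 replicates 2 and 3 was left out (adjusted P from 0.0503 to 0.177), and with upper quartile factors (0.0525). That for Angptl4, 0.32 ± 0.09, lay just under the fold change threshold, and passed it with upper quartile factors (0.32), under quantile normalization (0.36), in a fit of the groups compared alone (0.34), with a replicate block (0.32) and when any 1 of 10 libraries was left out. That for Adipoq, 0.32 ± 0.15 (edgeR adjusted P = 0.125), passed under quantile normalization (adjusted P = 0.0305), in a fit of the groups compared alone (0.0459) and without day 7 vehicle replicate 1 (0.0353). From day 2 to day 7 it changed for 9 of 9 genes, beside 20.9% of all genes, upward for 8 (11.9% of all genes) by 0.53 to 1.24 and downward for Angptl4 by -0.41 ± 0.09. Each of these 9 calls held when any single library was left out. That of Lgals12 was lost under quantile normalization (0.95, adjusted P = 0.145), and those of Angptl4 and Fabp5 were lost at a fold change over 1.5.

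Over the 8 group means of log2 CPM, the 9 genes were compared in their courses, as a description of groups that share treatment and time. Adipoq was closest to Retn (r = 0.995), Lpl (0.993) and Lgals12 (0.992). Angptl4 was the least similar to the others, with r from 0.43 with Cfd to 0.81 with Cd36. Outside the list, the 3 nearest courses to Adipoq were those of Prdx3 (r = 0.998), Tmem69 (0.998) and Myo19 (0.997). For Cfd they were Idh3g (0.999), Klf15 (0.995) and Isca1 (0.995), and for Retn A530016L24Rik (0.999), Fam213a (0.997) and Nrg4 (0.997). Angptl4 was nearest to Gprc5b (0.991), Peli2 (0.991) and Gramd1a (0.986), and Lgals12 to Mrps10 (0.993), Myo19 (0.993) and Arl4a (0.993). Those near Lpl included Pitpnm2 (0.998) and Srprb (0.997), and Cd36 was nearest to Pcx (0.998), Cidec (0.997) and Lipe (0.996). The nearest to Fabp4 were Cib2 (0.998), 1700029I15Rik (0.998) and Miga2 (0.997), and to Fabp5 2310061I04Rik (0.998), its near copy Gm6166 (0.997) and Slc25a5 (0.997).

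Among other secreted products of adipocytes, more were higher than lower DEGs in C70 cells on each day, as was so for all genes. Of 39 listed, 27 were in the table, and Lep, Ccl2 and Il6 were among those absent from it. Of the 27 present, 6 were higher and 0 lower on day 0, 11 and 0 on day 1, 18 and 3 on day 2, and 10 and 3 on day 7, beside 5.89% of all genes higher and 3.09% lower on day 0, 13.6% and 7.8% on day 1, 16.9% and 13.6% on day 2, and 14.3% and 4.85% on day 7. Their median was 0.48 on day 2 on the log2 scale (0.00 over all genes). C1qtnf1, a paralog of adiponectin of the C1q/TNF family, had 0.488 CPM in vehicle and 3.79 CPM in C70 cells on day 2 (log2 fold change 2.91 ± 0.23, edgeR adjusted P = 5.10e-12), but was lower on day 7 (-0.64 ± 0.17, edgeR adjusted P = 3.64e-03). Saa3, an acute phase apolipoprotein, had 9.12 and 38.1 CPM on day 2 (2.06 ± 0.14, edgeR adjusted P = 2.02e-13). Ccn5, a secreted matricellular protein, had 1.60 and 6.92 CPM (2.13 ± 0.22, edgeR adjusted P = 1.20e-09). Of the 27, Apln, Nrg4 and Mif were lower on day 2, and those lower on day 7 included Mif and C1qtnf1.

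The other fatty acid uptake, binding and activation genes included DEGs in both directions from day 1 on. Of 35 listed, 20 were in the table. Of these 20, 2 were higher and 0 lower on day 0, 5 and 4 on day 1, 6 and 8 on day 2, and 5 and 3 on day 7, with a median of -0.02 on day 2. In either direction 8.97%, 21.4%, 30.5% and 19.1% of all genes were DEGs on these days, so 2 of 20 on day 0 was near the share of all genes. Acsl1, which activates long-chain fatty acids to their CoA esters, had 641 CPM in vehicle and 261 CPM in C70 cells on day 1, then 6633 and 3171 CPM on day 2 (log2 fold change -1.06 ± 0.05, edgeR adjusted P = 1.11e-16). On day 7 it had 3863 and 4322 CPM (0.16 ± 0.05, under the fold change threshold). Scarb1, a scavenger receptor for lipoproteins, had 262 CPM in vehicle and 115 CPM in C70 cells on day 2 (-1.19 ± 0.05, edgeR adjusted P = 1.14e-17). Scarb1 and Lipg were the 2 higher on day 0. Slc27a1, Slc27a2, Slc27a3, Vldlr and Apoe were the 5 higher on day 1, where those lower included Dbi, Acsl1 and Scarb1. On day 7 Slc27a1, Acsl5, Got2, Apoe and Lipg were higher, and those lower included Slc27a3 and Acsl4.

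**Figure D4:**
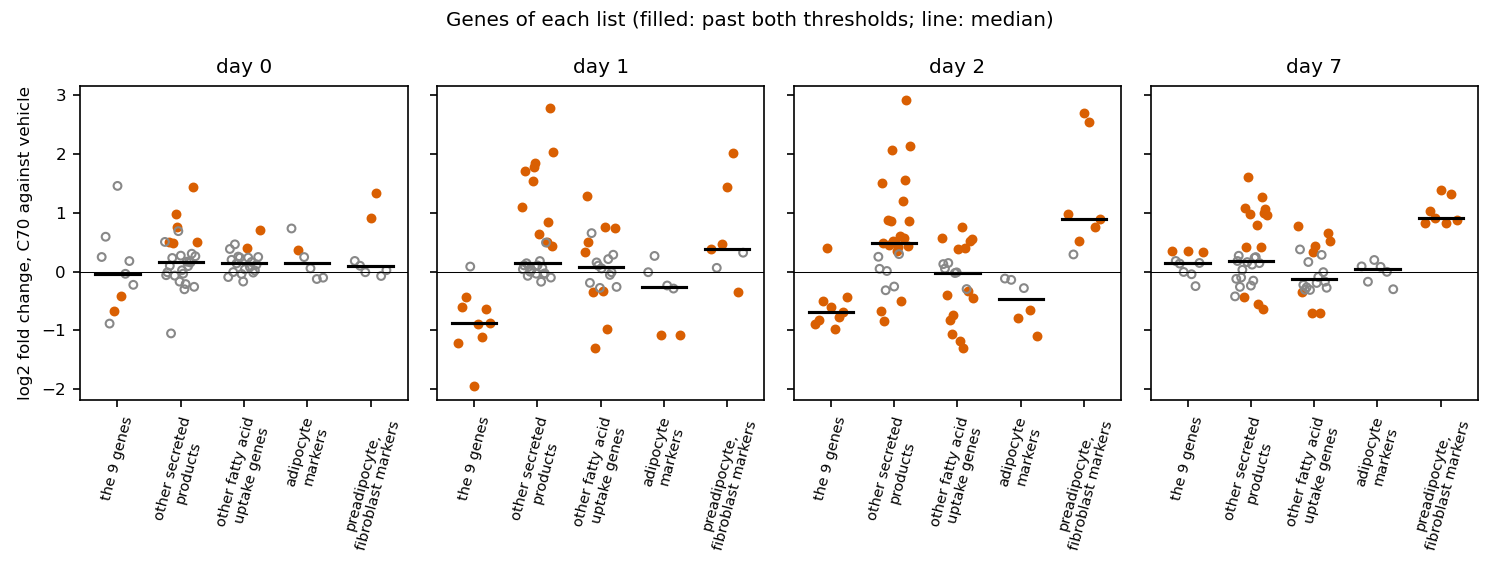
Log2 fold change of C70 against vehicle for the 9 genes and for genes of other lists on days 0, 1, 2 and 7. Each point is a gene, filled where it passed both thresholds, and the line is the median of the list. On day 2 the median is -0.69 for the 9 genes, 0.48 for other secreted products, -0.02 for other fatty acid genes, -0.47 for adipocyte markers and 0.89 for preadipocyte and fibroblast markers.

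Regulators of adipogenesis were compared as well. Pparg, the nuclear receptor that drives adipocyte genes, was lower in C70 cells on day 0 (-0.50 ± 0.06), day 1 (-0.60 ± 0.06) and day 2 (-0.57 ± 0.05, edgeR adjusted P = 1.86e-10), and on day 7 the difference of -0.15 ± 0.05 was under the fold change threshold. Cebpa, its partner factor, was higher on day 0 (0.39 ± 0.11), lower on days 1 (-0.52 ± 0.08) and 2 (-0.85 ± 0.08, edgeR adjusted P = 9.09e-11) and not called on day 7. Klf15, a regulator of late adipogenesis, was lower on day 2 (-0.64 ± 0.12), and Klf5, which acts early, was higher on all 4 days, by 1.05 on day 2. Of the 12 regulators in the counts, Pparg, Cebpa and Klf15 were lower on day 2, and Klf5 and Cebpd higher, beside 13.6% of all genes lower and 16.9% higher. The higher count, 2 of 12, was near the share of all genes, and the lower count, 3 of 12, was above it. These small counts were not tested against that share.

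Of 9 genes listed for adipokine assembly and receptors 8 were in the table, and of these 2 were higher and 2 lower on day 2, beside 16.9% and 13.6% of all genes. Cdh13, which encodes the adiponectin-binding T-cadherin, was higher on day 1 (0.50), day 2 (1.34) and day 7 (1.11), and Gstk1 on day 2. Ero1l, an oxidase of the endoplasmic reticulum, was lower on days 2 (-1.10) and 7 (-0.46), and the receptor Adipor2 on day 2 (-0.42). Of 11 other complement genes listed 6 were in the table. Among these 6, C3 and Cd55 were higher on day 0, C3 and Masp1 on day 1, Cd55 and Masp1 on day 2, and C3, Cfp and Cd55 on day 7, and none was lower on any day. These are counts of 2 or 3 genes, beside 5.89%, 13.6%, 16.9% and 14.3% of all genes higher on the 4 days. Of 6 other galectins listed 5 were in the table, and of these Lgals4 and Lgals9 were higher on days 1 and 2, and Lgals9 on day 7.

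Markers of cell stage differed in part with these results. On day 0 the summed adipocyte markers were 145 to 157 CPM in vehicle and 172 to 184 CPM in C70 samples, while Angptl4 and Fabp4 were lower in C70 cells. Of these 6 markers only 1 was a higher DEG, beside 5.89% of all genes, and 5 were not called. Their log2 fold changes ran from -0.13 to 0.73, with a median of 0.15. On day 1 the summed adipocyte markers were 1268 to 1437 CPM in vehicle and 1151 to 1186 CPM in C70 samples. The preadipocyte and fibroblast markers overlapped, at 8191 to 9088 and 9056 to 9989 CPM, with 4 of 7 higher and 1 lower beside 13.6% and 7.8% of all genes. The summed level of the adipocyte markers on day 2 was 8434 to 8678 CPM in vehicle and 5379 to 6113 CPM in C70 samples, with Cidec (-0.80), Dgat2 (-1.09) and Pnpla2 (-0.66) lower, and on day 7 it was 9976 to 11404 and 9992 to 11102 CPM with none called. The summed level of the preadipocyte and fibroblast markers was 3442 to 3515 CPM in vehicle and 5877 to 6250.4 CPM in C70 samples on day 2, and 2219 to 2906 and 4746 to 5478 CPM on day 7, when 7 of 7 were higher beside 14.3% of all genes. Thy1 led this list on day 2, with a log2 fold change of 2.69 ± 0.14. So on day 7 the fibroblast markers remained apart while none of the 9 genes was a lower DEG. Of the macrophage markers, Cd68 was higher on days 0 (3.85), 1 and 2 and Cd14 on days 1 and 2, and their sum was 7.81 to 8.91 CPM in vehicle and 25.7 to 26.8 CPM in C70 samples on day 0 and 3.07 to 4.14 and 9.02 to 10.1 CPM on day 2, while Ptprc, Adgre1, Csf1r, Lyz2 and Cd163 were not among the genes of the table. The muscle marker Des was higher on days 0, 1 and 2. The part of other cell states in the differences of the 9 genes was not tested.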

How the data were processed

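RNA sequencing of 29 samples of 3T3-L1 cells was analysed from the gene table the authors deposited. The authors prepared strand-specific libraries, used STAR 2.7.2a for alignment to the GRCm38 genome under Ensembl annotation, and edgeR, in version 3.26.8 per the submitters' processing notes. The counting program, its strand setting and the filter on low genes are not given in the sources used here. Although its name calls it normalized, the table deposited holds whole-number counts for 11959 genes, each with a CPM, without TMM scaling, above 1 in at least 20 samples, and 11953 were paired with a symbol through GENCODE annotation of the same build.

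Counts were scaled by TMM and fitted over all 8 groups with edgeR 4.0.16 (glmQLFit, glmQLFTest) in R 4.3.3, and in every comparison P was adjusted over all genes by Benjamini-Hochberg. A DEG needed an adjusted P under 0.05 and a log2 fold change beyond 0.32. The SE was taken as the absolute log2 fold change divided by the square root of the F statistic. The 95% intervals were computed from this SE by a normal approximation. Both are approximate, and least reliable for genes with few counts. Contrasts set C70 against vehicle on each day, each day against the one before within a treatment, and, as interactions, the effects of C70 on successive days. Alternatives were relative log expression and upper quartile factors, quantile normalization with limma-trend and limma-voom (limma 3.58.1), DESeq2 1.42.0, removal of the lowest 25% of genes by mean level, a fit of the groups compared alone, a replicate block, no fold change threshold, a fold change over 1.5, and leaving out each library in turn. Replicates differed by more than counting noise, with a chi-square per degree of freedom from 2.65 to 46.7 over 39 pairs (the 3 highest all held vehicle replicate 1 of day 7), so none was counted as a repeat. On simulated counts for 11959 genes with 200 changed 2-fold at day 2, the test recovered 96.5% with 3 false calls. Each simulated gene had its mean level over all samples and no other difference between groups. The recovery therefore does not cover genes near 0 in some groups, or changes close to the fold change threshold. Named beyond the 9 genes were, for each, 3 genes with the most similar group means of log2 CPM (prior count 2, span of at least 1), up to 3 DEGs with the largest difference from each list, and the members of counts of 5 or fewer, apart from some genes that fall under these rules but are not reported here. Pparg and Cebpd and some others counted were named outside this rule after their values were seen. The 9 genes, the lists and the tests were chosen with earlier results of these data known. Python 3.11.15, pandas 2.3.3 and matplotlib 3.10.9 were used for summaries and plots.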

Additional observations from a re-analysis of the deposited data

Results flagged for a closer look

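In 45 groups of 4 samples, 1 gene at a time, a sample was looked for whose gap to its nearest neighbour took up nearly the whole range of its group. Chance gives such a sample in about 1 in 20 groups, or 2.25 here, and 6 were found. Of these, 4 were in vehicle replicate 1 of day 7: Adipoq at 1619.8 CPM, Cfd at 4274 CPM, Retn at 553 CPM and Fabp5 at 479 CPM, each the highest of its group. The other 2 were Cfd at 2.14 CPM in C70 replicate 4 of day 1 and Lgals12 at 58.3 CPM in C70 replicate 2 of day 2. The values of this vehicle library were not tested for a cause.

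The effect of C70 differed between successive days for several genes, by edgeR's test of the interaction. From day 0 to day 1 the log2 fold change moved by -1.47 for Adipoq, 0.75 for Angptl4, -3.41 for Lgals12, -0.49 for Fabp4, -1.07 for Fabp5, -0.81 for Lpl and -0.64 for Cd36. From day 1 to day 2 it moved by 1.34 for Lgals12, 0.34 for Fabp5 and 0.44 for Cd36. From day 2 to day 7 it moved by 1.24 for Adipoq, 1.00 for Cfd, 0.64 for Retn, -0.41 for Angptl4, 0.96 for Lgals12, 0.94 for Fabp4, 0.53 for Fabp5, 0.84 for Lpl and 0.76 for Cd36. As given above, some of these calls were lost without certain single libraries. They were those of Adipoq and Lgals12 from day 0 to day 1, and of Fabp5 from day 1 to day 2.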

How the results depend on the processing

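Of 1170 values for the 117 tests of single genes under the alternatives that kept all libraries, 1115 kept their direction and side of the thresholds, 29 lost a call, 16 gained one and 10 changed sign. Under quantile normalization with limma-trend the sign changed for Adipoq at day 0 (-0.026), Angptl4 at day 7 (0.020), Lpl at day 7 (-0.096) and in vehicle from day 2 to day 7 (-0.35, then a lower DEG), for the C70 effect of Retn from day 0 to day 1 (-0.37, and -0.16 with limma-voom), and for the effects of Cfd (0.051), Retn (0.041) and Fabp4 (0.032) from day 1 to day 2. Angptl4 at day 7 was 0.017 without the lowest 25% of genes. The causes were not tested.

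The number of the 9 genes called at day 0 was 1 at a fold change over 1.5, and at day 2 it was 6, without Retn, Angptl4 and Cd36. At day 7 it was 1 under quantile normalization, 5 by adjusted P alone and 0 at a fold change over 1.5, and the change from day 1 to day 2 gave 5 under quantile normalization, 5 in a fit of the groups compared alone and 1 at a fold change over 1.5. Other secreted products gave 13 by adjusted P alone and 3 at a fold change over 1.5 at day 0, and 12 at 1.5 at day 2. Other fatty acid genes gave at day 0 1 under quantile normalization, 1 without the lowest 25% of genes, 6 by adjusted P alone and 1 at 1.5, then 5 at day 1 and 6 at day 2 at 1.5, and at day 7 16 by adjusted P alone and 4 at 1.5. The share of all genes called at these other settings is not given here. These counts therefore show only how the calls depend on the setting, not whether they exceed that share.

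With single libraries left out, the 9 genes gave 1 to 4 DEGs at day 7 (1 without vehicle replicate 4), 6 to 8 at day 1, and 2 to 5 for the change from day 1 to day 2 (5 without day 7 vehicle replicate 1). Retn at day 0 ranged from -1.44 to 0.49, Fabp5 at day 0 from -0.092 to 0.018, Angptl4 at day 7 from -0.039 to 0.054, Fabp4 at day 7 from -0.10 to 0.076, and the effect of Retn from day 0 to day 1 from -0.93 to 1.00. Cd36 at day 0 ranged from -0.37 to -0.042 and was not called in any of these fits.

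The replicate numbers did not pair the samples: deviations of same-numbered samples correlated at -0.205 to 0.214 over 13 pairs, those of other numbers at -0.252 to 0.326, and 3 of 13 vehicle samples correlated best with their own number. With a replicate block, 9 of the 9 genes were called at day 2 and 3 at day 7, and the one call that differed was Angptl4 from day 1 to day 2, which gained it (0.32). Depth limits Retn, Lgals12, Adipoq and Cfd at day 0.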
